A study of Mus musculus with 6 samples.

Results

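The cytosolic ribosomal protein genes encode the protein part of the small (40S) and large (60S) ribosomal subunits. They were chosen by gene symbol, from the rows of the deposited expression table that name exactly 1 gene in the platform annotation, and where a gene had several rows the one with the highest mean was taken. The choice gave 68 genes of 22179 in all; the rule uses no difference between groups, but it was set with earlier results of these data known. Expression was measured in mouse small-cell lung cancer (SCLC) cells that were sorted for a green fluorescent reporter of Hes1, a repressor of transcription and a target of Notch. GFP-high cells (Hes1 high, 3 arrays) were compared with GFP-negative cells (labelled negative or low, 3 arrays), and both came from animals with conditional alleles of Rb, p53 and p130, the Hes1 GFP reporter allele and intratracheal Adeno-Cre. Tumours were isolated 5 to 6 months after Cre, pooled (from 3 mice, per the treatment protocol) and sorted; neither the cell type in which the adenovirus acts nor the sex of the animals is given in the sources used here. The labels call the samples of a group biological replicates but do not say whether each had its own pool, so the p-values measure the spread between these samples.

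Ribosomal proteins are made in near equal numbers and assembled with ribosomal RNA in the nucleolus, with the help of many assembly factors that do not stay in the finished ribosome. Their mRNAs begin with a run of pyrimidines, the terminal oligopyrimidine (TOP) tract, through which the kinase mTOR controls their translation together. Most of these genes also have many processed pseudogenes of almost the same sequence elsewhere in the genome, so probes for them can read several copies, and single values are uncertain for that reason. Some members have paralogues with restricted expression, and some have roles outside the ribosome, such as the binding of Mdm2 by Rpl5 and Rpl11, which links ribosome assembly to p53.

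The sort and the state of the arrays were as follows. Hes1 had a log2 value of 10.40 ± 0.11 in GFP-high cells and 6.85 ± 0.18 in GFP-negative cells (SD, n = 3 each), a log2 fold change of 3.54 ± 0.13 (SE; adjusted p = 4.87e-07 by limma). Array correlations over all genes lay between 0.987 and 0.991 within groups and between 0.918 and 0.94 across groups. The mean log2 value over 8 measured neuroendocrine markers, the defining genes of SCLC, was 7.53, 7.25 and 8.26 in GFP-high cells and reached from 9.92 to 10.01 in GFP-negative cells. All 8 fell in GFP-high cells, in which all 9 alveolar type 2, all 6 alveolar type 1 and 7 of 8 club cell markers were higher. Of 10 leukocyte markers 0 rose and 1 fell, of 7 endothelial markers 1 rose (Kdr, 3.87) and 0 fell, and of 7 fibroblast markers 0 rose and 1 fell (Dcn, -1.47). GFP-high replicate 3 had the highest neuroendocrine level of its group, and counts without it are given below. In bulk samples, fewer cells of a type and less RNA per cell cannot be told apart, and the part of cell makeup in the differences below was not tested.

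Of the 78 core ribosomal proteins listed for mouse ribosomes, 59 were among the members. Another 12 are named only by rows that also name other genes, and the others were not analysed here. The other members are 7 paralogues of a core protein and 2 further copies, Rpl6l and Rpl32l. RefSeq annotates Rpl6l as a pseudogene and Rps4l as a transcribed pseudogene.

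The 5′ ends of member genes share a sequence feature that the choice by symbol did not use. Promoter sequences from RefSeq (GRCm38.p6) were held for 53 of the 68 members. A run of at least 8 C or T on the gene's strand, between 60 bases before and 30 after the annotated start, was present in 37 of 53 members (69.8%) and in 36.8% of 26972 other genes. The share was 69.2% among the 13 members called higher below and 69.2% among the 39 not called. The motif CTTTCC, searched on both strands between 100 bases before and 50 after the start, was present in 37.7% of members and 15% of other genes. The ETS-type motif CGGAAG was present in 49.1% of members and 13.4% of other genes, with 30.8% of the 13 members called higher and 56.4% of the 39 not called. The E-box CACGTG, the letters bound by Myc, was present in 1.89% of members and 5.01% of other genes. CTTTCC can lie inside the pyrimidine runs, CACGTG is its own reverse complement, and a match is only a description of letters. The windows below are those of members with a single RefSeq start whose used array row lay on the gene's own chromosome (see the paragraph on row places). They show 3 members that were higher in GFP-high cells (Rps12, Rps10, Rps4x), the member that was lower (Rplp2) and 4 strongly hybridising members with little difference, 5′ to 3′ on the gene's strand, with pyrimidine runs in capitals.
Rps12, chr10:23787180-23787269, minus strand: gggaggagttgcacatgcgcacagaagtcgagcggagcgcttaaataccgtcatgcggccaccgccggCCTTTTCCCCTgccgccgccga
Rps10, chr17:27635215-27635304, minus strand: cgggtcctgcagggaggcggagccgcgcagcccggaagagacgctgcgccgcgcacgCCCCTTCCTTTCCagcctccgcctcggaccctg
Rps4x, chrX:102189362-102189451, minus strand: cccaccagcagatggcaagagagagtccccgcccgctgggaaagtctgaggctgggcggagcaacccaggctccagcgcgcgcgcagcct
Rplp2, chr7:141447591-141447680, plus strand: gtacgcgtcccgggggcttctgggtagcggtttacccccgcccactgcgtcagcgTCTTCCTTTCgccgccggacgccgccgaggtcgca
Rpl4, chr9:64173327-64173416, plus strand: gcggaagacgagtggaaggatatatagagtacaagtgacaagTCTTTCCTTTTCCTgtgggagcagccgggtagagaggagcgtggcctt
Rpl14, chr9:120571457-120571546, plus strand: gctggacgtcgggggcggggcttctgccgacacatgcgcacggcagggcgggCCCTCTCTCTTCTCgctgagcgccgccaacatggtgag
Rps3, chr7:99483680-99483769, minus strand: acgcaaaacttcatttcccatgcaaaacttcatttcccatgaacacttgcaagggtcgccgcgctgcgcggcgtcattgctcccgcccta
Rpl41, chr10:128549139-128549228, minus strand: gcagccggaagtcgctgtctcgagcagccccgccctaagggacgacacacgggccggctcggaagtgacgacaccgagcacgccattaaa
The longest run had 14 bases in Rpl4 and Rpl14, 13 in Rps10, 11 in Rps12 and 10 in Rplp2. Rps4x, which rose, and Rps3 and Rpl41, which were not called, had no such run in this window.

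The question of the comparison was which of these genes differ between Hes1-reporting and non-reporting tumour cells. Of 68 ribosomal protein genes, 19 passed the test as higher in GFP-high cells (27.9%), 1 as lower (1.47%) and 48 did not pass. Across all 22179 genes, 13% were called higher and 17% lower (limma, Benjamini-Hochberg adjusted p under 0.05 over all genes). The median log2 fold change of the members was 0.19, with quartiles at -0.06 and 0.39, beside 0.0075 for all genes. Fold changes reached from -0.51 to 1.11, so the changes were small beside those of the cell type markers. Of the members 48 lay above 0 and 20 below. The 3 GFP-high values all lay above the 3 GFP-negative values in 28 members (41.2%), against 20% of all genes, and all below in 3 members, against 24.6% of all genes. Besides the 19 called genes, the 28 were Rps27, Rps24, Rpsa, Rps6, Rps9, Rpl19, Rps3a1, Rpl3l and Rps29, and the 3 were Rplp2, Rps27l and Rpl29. The plot of all members by array shows this gradient gene by gene.

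**Figure D1:**
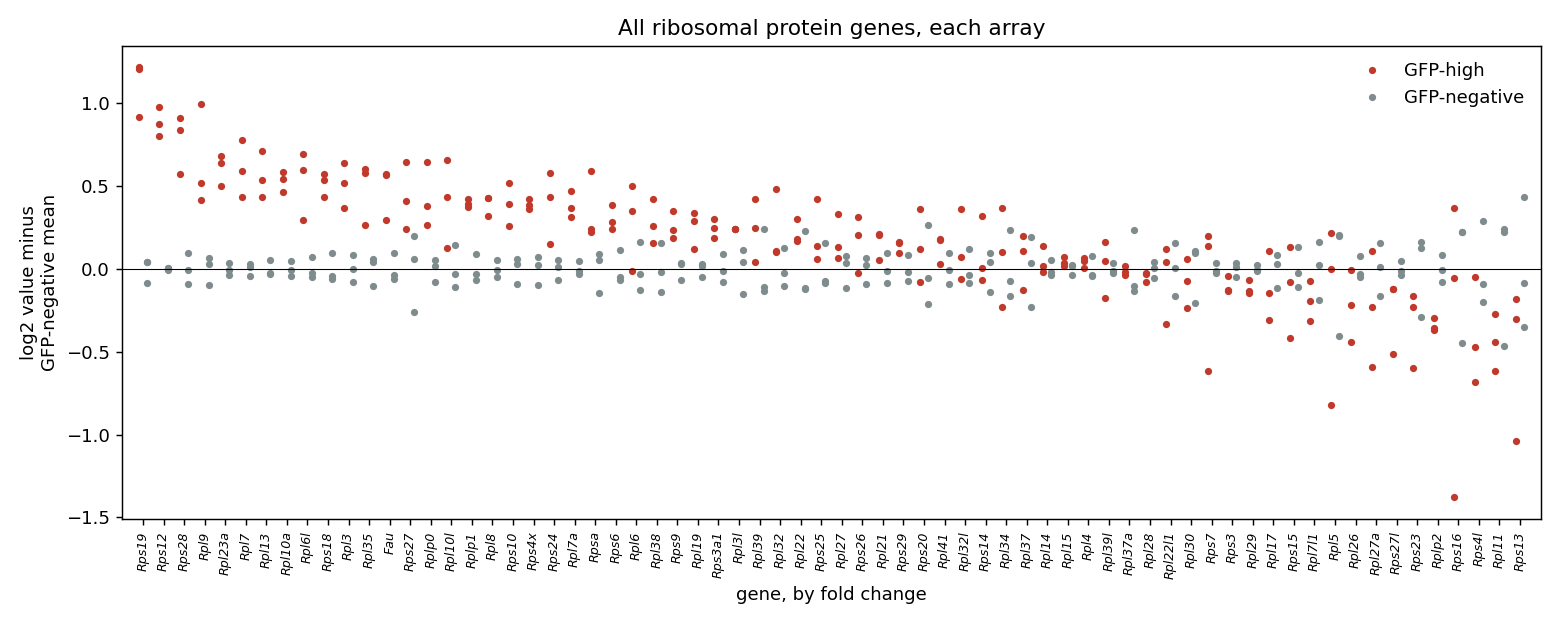
Log2 value of each array minus the GFP-negative mean of the same gene (vertical axis, log2 units) for the 68 ribosomal protein genes, ordered by fold change (horizontal axis). Red points are the 3 GFP-high arrays and grey points the 3 GFP-negative arrays; at the left all red points lie above the grey ones, with the highest fold change at 1.11 (Rps19), and at the right the lowest is -0.51 (Rps13).

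The number of calls depended on single arrays, while the members' median stayed above 0 in every setting tried. Uncalled members changed sign 23 times over all members and settings. With 1 array left out, 10 members were called higher without GFP-high replicate 1, 12 without GFP-high replicate 2, and 12, 14 and 12 when GFP-negative replicate 1, 2 or 3 was dropped. These are 14.7% to 20.6% of the members, beside 10.7% to 11.5% of all genes called higher in the same 5 fits. Without GFP-high replicate 3, the array with the highest neuroendocrine level of its group, 19 members were called higher (27.94%, beside 12.33% of all genes). The median difference of the members from the GFP-negative mean was 0.32, 0.16 and 0.11 in GFP-high replicates 1, 2 and 3. Over the 19 members called higher it was 0.55, 0.58 and 0.39, and GFP-high replicate 3 held the lowest of the 3 GFP-high values in 17 of these 19 genes.

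Most calls lay among rows with strong signal. The 38 members with a log2 mean of at least 7.63, the upper quartile of all genes, had 18 called higher and none lower, with a median of 0.39. Of the 5545 genes of the whole array above that level, 18.4% were called higher and 29.4% lower, with a median of -0.14. The 30 members below that level had 1 called higher (Rps10) and 1 lower (Rplp2), with a median of -0.07. In tertiles of the members' own means, 9 of 23 were called higher in the high tertile, 10 of 23 in the middle and 0 of 22 in the low one, and the medians were 0.28, 0.39 and -0.07. At an unadjusted p under 0.05 limma gave 1 higher and 1 lower member in the low tertile. Of the 5 members with means above 11.9, none passed: Rpl21 had a log2 fold change of 0.16, Rpl29 -0.11, Rpl28 -0.04, Rpl4 0.04 and Rps6 0.30.

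Many rows that carry a ribosomal protein symbol do not lie where the gene does. Probe identifiers of this array follow the genome, and 99.6% of 22784 other single-gene rows lie among rows of their own gene's chromosome (at least 8 of the 10 neighbouring rows). Of the 68 rows used, 45 lay among rows of the gene's own chromosome, 20 among rows of another chromosome, and 3 (Rpl7, Rpl35, Rps18) had neighbours that did not settle it. The median of row means was 6.34, 10.80 and 9.74 in these classes. Members called higher numbered 7 of 45 on the gene's own chromosome, 9 of 20 on another, and 3 of 3 unsettled, with median fold changes of 0.08, 0.37 and 0.51. Among the 38 members above the upper quartile the same classes gave 6 of 15, 9 of 20 and 3 of 3, and the median was 0.28 for the 15 on their own chromosome, of which 14 lay above 0. The 7 members called higher whose used row lay on the gene's own chromosome were Rps12, Rpl10a, Rpl6l, Rplp1, Rpl8, Rps10 and Rps4x. Another 23 rows on the gene's own chromosome were not used, since a stronger row existed. Of these, 1 was called higher (Rpl13) and 1 lower (Rpl27), with a median fold change of 0.06. Over all single-gene rows 12.9% were called higher. How far copies elsewhere in the genome contribute to any of these rows was not tested. Another 57 rows of the same arrays, not used for the members, name a ribosomal protein gene together with other genes. Of these, 14 were called higher and 4 lower by limma, beside 8.46% and 10.4% of all 41344 rows, which include rows that name no gene.

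**Figure D2:**
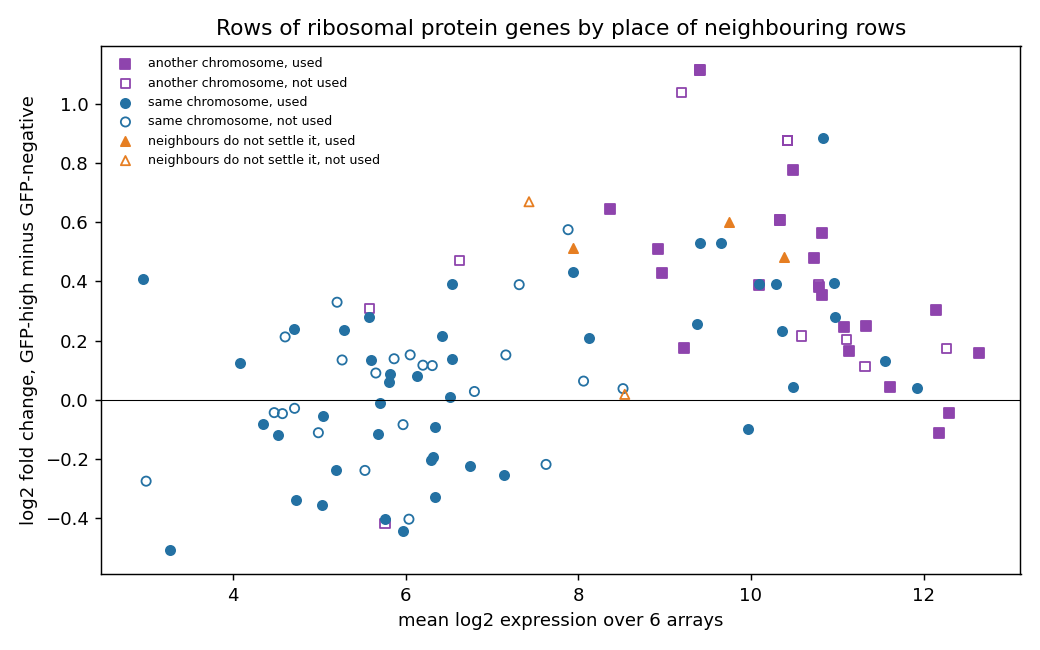
Log2 fold change, GFP-high minus GFP-negative (vertical axis), against mean log2 expression over 6 arrays (horizontal axis) for the 110 single-gene rows of the members. Colour and shape give the place of neighbouring rows, and filled symbols the 68 rows used; filled purple squares (20 rows on another chromosome) all have means above 8.3, while most filled blue circles lie below 8.

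Of 24 members of the small subunit, 7 rose (29.2%) and none fell (median 0.25). In 14 of them (58.3%) the GFP-high values all lay above the GFP-negative values. Across all genes 13% were called higher, 17% lower, and 20% had all GFP-high values above. Of the 15 small subunit members above the upper quartile by mean 6 rose, and of the 9 below it 1. Of all genes above that quartile 18.4% were called higher. Rps19, needed for small subunit maturation and mutated in human Diamond-Blackfan anaemia, had log2 values of 10.06, 10.07 and 9.77 in GFP-high cells and 8.77, 8.90 and 8.89 in GFP-negative cells. It rose by 1.11 ± 0.12 (log2 fold change ± SE, 2.17-fold; adjusted p = 0.000223 by limma), the largest rise among the members, on a row that lies among rows of another chromosome. A second row of Rps19 held the same values, and another with a mean of 5.87 gave a log2 fold change of 0.14. Rps12, a small subunit protein known in flies for its role in cell competition, read 11.37, 11.27 and 11.20 in GFP-high cells and 10.40, 10.39 and 10.40 in GFP-negative cells. Its rise of 0.89 ± 0.11 (1.85-fold; adjusted p = 0.000328 by limma) was far larger than the spread in either group, and its row lay on the gene's own chromosome. Rps12 had 8 rows, of which 3 were distinct in their values, and they gave rises of 0.88 to 1.04.

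Rps28, another small subunit protein, read 10.94, 11.02 and 10.67 in GFP-high cells and 10.09, 10.20 and 10.01 in GFP-negative cells (0.77 ± 0.13; adjusted p = 0.00188 by limma). The groups did not overlap, but a second row of Rps28 with a mean of 5.53 gave -0.24, and the mean of both rows was not called (adjusted p = 0.12 by limma). Rps18, of the head of the small subunit, rose by 0.51 ± 0.11 and Fau, which encodes a ubiquitin-like protein fused to a small subunit protein, by 0.48 ± 0.12. Rps18 read 8.11, 8.22 and 8.26 in GFP-high cells and 7.78, 7.62 and 7.64 in GFP-negative cells. Both lost their call when the rows of the gene were averaged (adjusted p = 0.709 for Rps18 by limma). The weaker rows gave 0.15 for Fau, and -0.42 and 0.13 for Rps18. Leaving out 1 array ended the call of Fau for 4 of the 6 arrays and that of Rps18 for none. Rps4x, an X-linked gene of the small subunit, read 10.29, 10.33 and 10.27 in GFP-high cells and 9.81, 9.98 and 9.93 in GFP-negative cells. It rose by 0.39 ± 0.11 (adjusted p = 0.0237 by limma), and so did Rps10 (0.39 ± 0.12, adjusted p = 0.0348 by limma), a protein at the mRNA entry that is ubiquitinated when ribosomes stall. Rps10 read 6.73, 6.86 and 6.60 in GFP-high cells and 6.26, 6.40 and 6.37 in GFP-negative cells. Among the rows used, its row was the only one below the upper quartile that was called higher. Each of these 2 calls was lost when some single arrays were left out, with adjusted p up to 0.0895 for Rps4x and 0.116 for Rps10 over all settings.

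Small subunit members that did not pass included Rps24 (0.39 ± 0.13, adjusted p = 0.0591 by limma), Rps27 (0.43 ± 0.16, adjusted p = 0.074) and Rps6 (0.30 ± 0.11, adjusted p = 0.0749), the protein phosphorylated by S6 kinases. Rpsa, also known as a laminin receptor, had 0.35 ± 0.14 (adjusted p = 0.0936 by limma). In all of these the GFP-high values lay above every GFP-negative value, and each of these 4 genes was called in at least 1 other setting, Rps24 in 6 of them. The lowest fold changes were those of Rps13 (-0.51 ± 0.26, adjusted p = 0.193 by limma), Rps16 (-0.35 ± 0.40) and Rps23 (-0.33 ± 0.17, adjusted p = 0.189), on rows with means below 6.4. Rps16 read 5.57, 5.16 and 3.83 in GFP-high cells and 5.43, 5.43 and 4.76 in GFP-negative cells, with overlapping groups and the widest spread of any member. A stronger row that names Rps16 together with other genes went the other way (0.35 ± 0.12, GFP-high mean 10.61, GFP-negative mean 10.26). The groups did not overlap on that row. It did not pass over all rows (adjusted p = 0.088 by limma). With rows naming several genes also used, Rps16 was called higher (adjusted p = 0.0477 by limma). Rps3, at the mRNA entry of the small subunit, read 9.88, 9.97 and 9.89 in GFP-high cells and 9.96, 10.05 and 10.02 in GFP-negative cells (-0.10 ± 0.10, adjusted p = 0.534 by limma).

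Of 32 members of the large subunit, 9 rose (28.1%) and none fell (median 0.17), beside 13% of all genes called higher and 17% lower. All 9 were among the 20 large subunit members above the upper quartile by mean, and of the 12 below it 0 rose. Of all genes above that quartile 18.4% were called higher. Rpl9 rose by 0.64 ± 0.16 (adjusted p = 0.0155 by limma), with 8.57, 9.04 and 8.47 in GFP-high cells and 8.12, 7.96 and 8.08 in GFP-negative cells. A second row of Rpl9, on the gene's own chromosome, gave -0.11. Rpl23a, which lies at the exit of the peptide tunnel and contacts the signal recognition particle, averaged 10.64 ± 0.09 in GFP-high cells and 10.03 ± 0.04 in GFP-negative cells (SD, n = 3 each; 0.61 ± 0.11, 1.52-fold; adjusted p = 0.00276 by limma). Rpl7 followed with 0.60 ± 0.12 (adjusted p = 0.00554 by limma) and Rpl13 with 0.56 ± 0.12 (adjusted p = 0.00622 by limma). Rpl13 read 11.08, 11.26 and 10.98 in GFP-high cells and 10.52, 10.52 and 10.60 in GFP-negative cells, and its 2 rows gave 0.56 and 0.57. Rpl10a, of the mobile L1 stalk near the tRNA exit, read 9.69, 9.73 and 9.61 in GFP-high cells and 9.11, 9.19 and 9.14 in GFP-negative cells. Its rise of 0.53 ± 0.10 (1.45-fold; adjusted p = 0.00472 by limma) stands on the gene's own chromosome and on its single row. Rps19, Rps12, Rpl23a, Rpl7, Rpl13 and Rpl10a kept their call and direction in all 15 settings other than every row alone and rows naming several genes. They were the 6 members that did. Averaging rows could not change Rpl10a, with its single row, or Rpl23a, whose 2 rows hold the same values. The average for Rps19 counted its repeated row 2 times. Tested on their own, the weaker rows of Rps19 (0.14) and Rpl7 (0.33) were not called.

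The remaining large subunit calls were smaller. Rpl3, close to the peptidyl transferase centre, rose by 0.51 ± 0.12 (adjusted p = 0.0109 by limma) on the strongest of 3 rows, while the others gave 0.06 and -0.05. It read 9.30, 9.19 and 9.04 in GFP-high cells and 8.75, 8.67 and 8.59 in GFP-negative cells. Rpl35, at the tunnel exit, rose by 0.48 ± 0.13, Rpl8, which also reaches the peptidyl transferase centre, by 0.39 ± 0.11, and Rpl7a by 0.38 ± 0.11. The groups did not overlap in any of them. Leaving out 1 array ended the call of Rpl35 for 3 of the 6 arrays, that of Rpl8 for 4 and that of Rpl7a for 5, with adjusted p by limma up to 0.124, 0.0737 and 0.224 over all settings. Rpl8 read 10.52, 10.52 and 10.41 in GFP-high cells and 10.09, 10.15 and 10.04 in GFP-negative cells. Of Rpl7a, 2 rows with nearly the same values gave 0.38 and 0.39, and the other gave -0.22. Rpl27 was not called on the row used (0.18), while a weaker row on the gene's own chromosome was called lower (-0.40, adjusted p = 0.0472 by limma). Rps20 and Rps26 also had a weaker row of opposite sign, at -0.04 and -0.27, beside 0.14 and 0.16 on the rows used, and none of these passed.

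Rpl5 and Rpl11, which bind Mdm2 together with 5S ribosomal RNA, did not pass in these p53-deleted tumours. Rpl11 read 5.92, 5.58 and 5.75 in GFP-high cells and 6.43, 5.72 and 6.41 in GFP-negative cells (-0.44 ± 0.20, adjusted p = 0.14 by limma). The groups overlapped through GFP-negative replicate 2, without which Rpl11 was called lower (-0.67, adjusted p = 0.0107 by limma). Rpl5 had -0.20 ± 0.28 (adjusted p = 0.645 by limma). Other large subunit members with low fold changes were Rpl27a (-0.24 ± 0.18) and Rpl26 (-0.22 ± 0.13), neither of which passed. The rows used for Rpl5, Rpl27a and Rpl26 had means of 6.30, 5.20 and 6.74. The strongest row naming each gene together with others gave 0.14 for Rpl5, -0.07 for Rpl27a and 0.55 for Rpl26. Of these only the row of Rpl26 was called (higher, adjusted p = 0.0337 by limma over all rows). A further shared row of Rpl27a, with Snora3, gave -0.27 and was not called. Rpl38, known in mouse for its part in the translation of Hox mRNAs, had 0.28 ± 0.13 (adjusted p = 0.143 by limma). Rpl22, which also binds RNAs outside the ribosome, had 0.22 ± 0.13 (adjusted p = 0.269 by limma).

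The 3 P-stalk proteins recruit the elongation factors to the large subunit, and their genes changed in both directions. Rplp0, the base of the stalk, read 9.14, 9.40 and 9.03 in GFP-high cells and 8.82, 8.68 and 8.78 in GFP-negative cells (0.43 ± 0.13, adjusted p = 0.0348 by limma). Rplp1 read 11.19, 11.14 and 11.16 in GFP-high cells and 10.73, 10.86 and 10.70 in GFP-negative cells (0.40 ± 0.11, adjusted p = 0.0212 by limma). Rplp2 was the only member called lower, with 4.60, 4.53 and 4.54 in GFP-high cells and 4.82, 4.89 and 4.98 in GFP-negative cells (-0.34 ± 0.11, adjusted p = 0.0417 by limma). The groups did not overlap in any of the 3 genes. The row of Rplp2 has a low signal, and its call was lost without any 1 of the 6 arrays, with adjusted p up to 0.123 over all settings. Leaving out 1 array ended the call of Rplp0 for 5 of the 6 arrays and that of Rplp1 for 4.

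**Figure D3:**
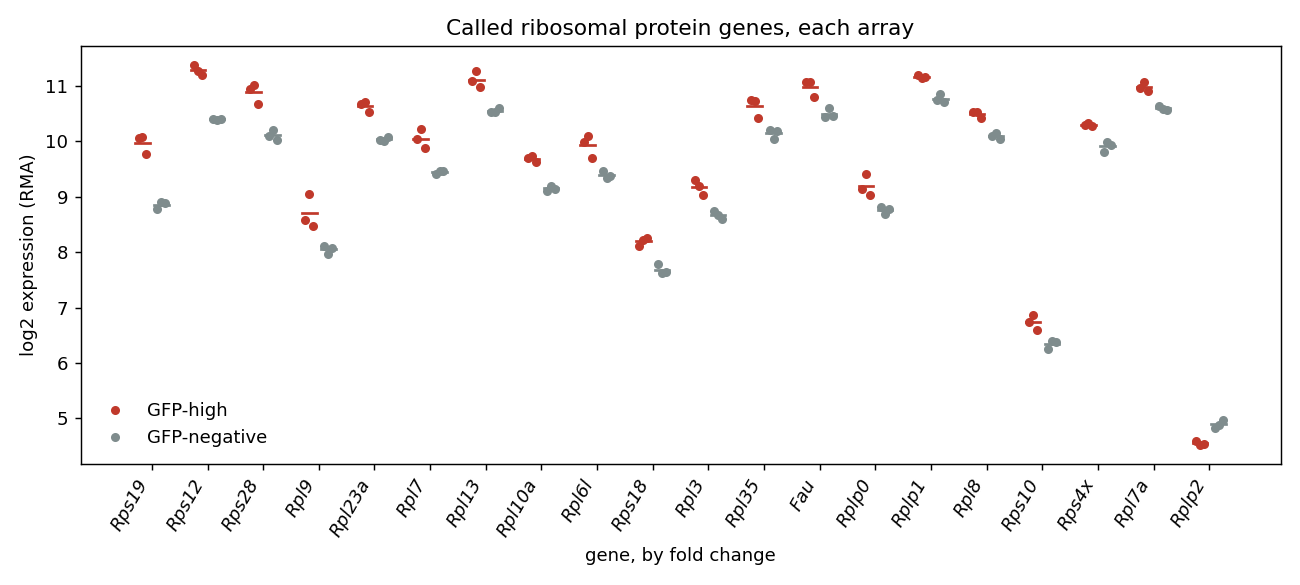
Log2 expression (vertical axis) of the 20 called ribosomal protein genes, ordered by fold change (horizontal axis), with 1 point for each array and a bar for the mean of 3. GFP-high arrays are red and GFP-negative arrays grey; the groups are separate in every gene, and Rplp2 at the right is the gene in which GFP-high lies lower (4.56 against 4.90).

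None of the 7 paralogues of a core protein passed the test (Rpl10l and Rps4l did in other settings), and 3 had fold changes above 0 (median -0.06; at an unadjusted p under 0.05 limma gave 1 higher and 0 lower). Rpl10l, which stands in for the X-linked Rpl10 in male meiosis, had 0.41 ± 0.15 (adjusted p = 0.0824 by limma) at a mean near 3, close to the lower end of the scale. Rpl3l, of striated muscle, had 0.24 ± 0.11, and Rpl39l, known from the testis, 0.01 ± 0.12. Rps27l, a p53 target, read 7.14, 6.75 and 7.14 in GFP-high cells and 7.25, 7.23 and 7.31 in GFP-negative cells (-0.25 ± 0.14, adjusted p = 0.21 by limma). Its groups did not overlap. Rps4l had -0.40 ± 0.19, Rpl7l1, a nucleolar relative of Rpl7, -0.19 ± 0.13, and Rpl22l1 -0.06 ± 0.15. Of the 2 further copies, Rpl6l was called higher (0.53 ± 0.13, adjusted p = 0.0156 by limma), while the row of Rpl6 itself had a mean of 5.58 and 0.28 ± 0.16. Rpl32l had 0.12 ± 0.14, beside 0.23 ± 0.14 for Rpl32.

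The change of each paralogue was set against that of its core protein within each array for 6 pairs. The paralogue's change minus that of the core protein was below 0 in all 6: -0.79 for Rpl7l1 against Rpl7, -0.79 for Rps4l against Rps4x, -0.69 for Rps27l against Rps27, -0.27 for Rpl22l1 against Rpl22, -0.27 for Rpl3l against Rpl3 and -0.23 for Rpl39l against Rpl39. The 3 GFP-high differences lay below the 3 GFP-negative ones in 5 pairs, all but Rpl39l. An exact two-sided permutation test gave p = 0.1 in these 5 (adjusted p = 0.12 over the 6 pairs), which is the smallest p that 3 against 3 arrays allow and does not pass 0.05. For Rpl39l the exact permutation p was 0.4. The difference for Rpl3l turned to 0.065 when all rows of a gene were averaged.

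Assembly factors build the ribosome and leave it again. Of 47 measured ribosome assembly factors, 13 fell and none rose (median -0.24; at an unadjusted p under 0.05 limma gave 18 lower and 0 higher). Utp20 (-1.28 ± 0.13), Utp4 (-0.98 ± 0.11) and Utp18 (-0.97 ± 0.14), parts of the processome that makes the small subunit, fell most, followed by Bysl (-0.88 ± 0.12). Nop56 (-0.81 ± 0.10) and Nop58 (-0.61 ± 0.15), the core of box C/D snoRNPs that modify ribosomal RNA, also fell. Nop56 averaged 9.65 ± 0.03 in GFP-high cells and 10.46 ± 0.05 in GFP-negative cells (SD, n = 3 each; adjusted p = 0.000426 by limma). Without GFP-negative replicate 1 the count of factors that fell was 7 of 47, beside 3006 of 22179 genes called lower in the same fit. The 13 are 27.7% of the factors, beside 17% of all genes called lower and 29.4% of the genes above the upper quartile by mean; the factors' own means had a median of 7.75. The difference between these factors and the ribosomal proteins was not tested.

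Of 71 genes of mitochondrial ribosomal proteins, the counterparts that translate mitochondrial mRNAs, 2 rose (2.82%) and 5 fell (7.04%, median -0.05). Across all genes 13% were called higher and 17% lower. Mrpl14 (0.49 ± 0.12) and Mrpl39 (0.39 ± 0.12) rose, and Mrpl20 (-0.75 ± 0.18), Mrps23 (-0.56 ± 0.11) and Mrps17 (-0.48 ± 0.12) fell most. Of 29 translation initiation factors, 1 rose and 8 fell (27.6%, median -0.13), close to the share of strongly hybridising genes called lower: the helicase gene Eif4a1 rose by 0.52 ± 0.13, and the cap-binding Eif4e (-0.87 ± 0.15), the exchange factor subunit Eif2b1 (-0.72 ± 0.13), Eif4g2 (-0.67 ± 0.12) and Eif4g3 (-0.63 ± 0.13) fell most. Of 12 elongation factors and other TOP mRNAs, 2 rose and 2 fell (16.7% each, median 0.08). Eef1d (0.77 ± 0.10) and Tpt1 (0.70 ± 0.14) rose, and Eif5a (-0.51 ± 0.12) and Eef1a2 (-1.95 ± 0.20) fell. Eef1a2 is the elongation factor isoform of neurons and muscle. Neuroendocrine markers fell in the same arrays, and a link between these falls was not tested.

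RNA polymerase I genes, which transcribe ribosomal RNA, had 3 higher (21.4%) and 1 lower (7.14%) of 14 (median 0.0072). For this list and the 2 that follow, the shares of all genes were 13% higher and 17% lower. The largest subunit Polr1a rose by 0.99 ± 0.12 and Polr1c by 0.66 ± 0.11, Taf1d by 0.64 ± 0.19, and the initiation factor Rrn3 fell (-0.63 ± 0.15). Of 14 genes of translation control by mTOR, 1 rose (7.14%) and 3 fell (21.4%, median -0.15). The mTOR activator Rheb (-0.68 ± 0.12), the mTOR partner Mlst8 (-0.51 ± 0.11) and Tsc2 (-0.43 ± 0.11), which inhibits Rheb, fell and Eif4ebp2, which restrains cap binding, rose (0.65 ± 0.16). Among 7 snoRNA host genes, which carry TOP tracts without coding for proteins, Snhg3 (-0.45 ± 0.12) and Snhg4 (-0.34 ± 0.11) fell (28.6%) and none rose (median -0.05). At an unadjusted p under 0.05 limma gave 0 higher among them.

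**Figure D4:**
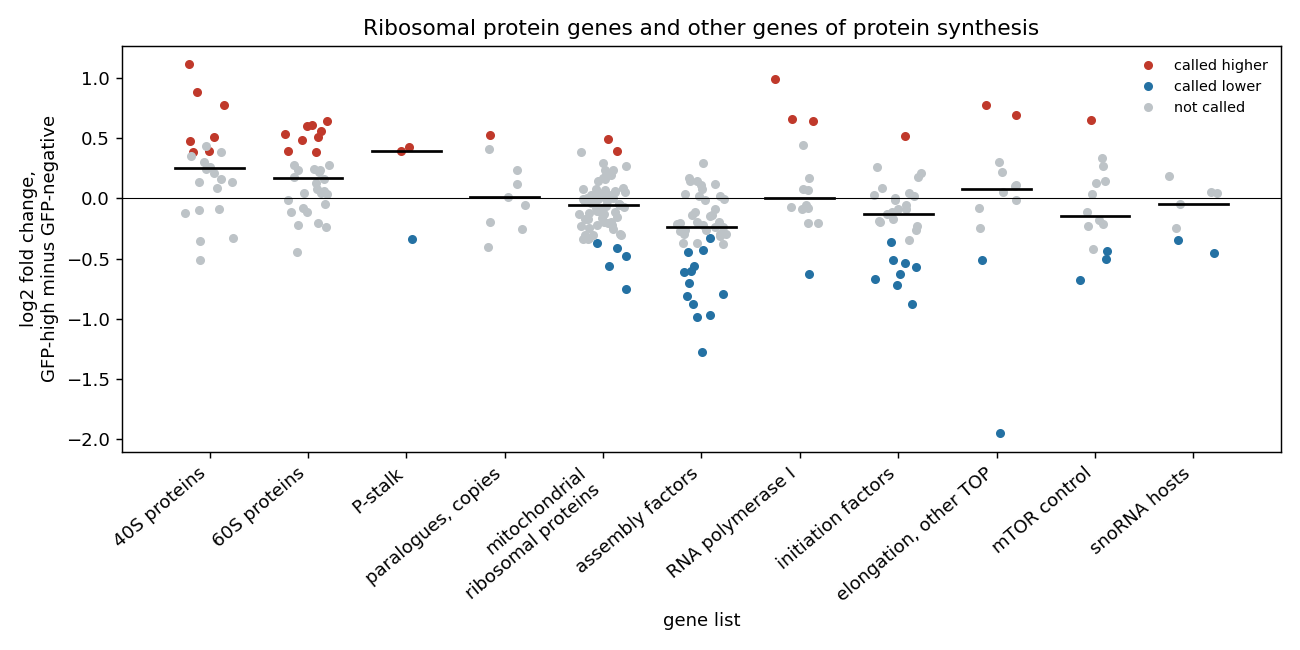
Log2 fold change, GFP-high minus GFP-negative (vertical axis), of ribosomal protein genes by role and of other genes of protein synthesis (horizontal axis), with a point for each gene and a black bar for the median of each list. Red points were called higher, blue lower and grey not called; 40S and 60S proteins have 7 and 9 red and no blue points, and assembly factors 13 blue and no red points.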

How the data were processed

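The deposited values are log2 expression values from Affymetrix Mouse Gene 2.0 ST arrays, made by the authors with RMA, per the submitters' processing notes, with the RMA version not given in the sources used here. RMA equalises array distributions, so a shift shared by most genes is not seen. The number of arrays limits the precision. The table has 41344 rows, and 0 columns belonged to other samples.

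Genes were tested with limma (lmFit and eBayes, 4.50 prior and 4 residual degrees of freedom) as GFP-high minus GFP-negative over all 22179 genes, with no filter, no block and Benjamini-Hochberg adjustment at 0.05. Entrez identifiers of all 68 members were found in RefSeq, which changed 0 symbols. Named genes are all called members, all paralogues, P-stalk genes, the 8 highest and 8 lowest fold changes, members whose rows disagree, and up to 4 genes of each other list. A few further genes were named after their values were seen. The members and lists were chosen with earlier results of these data known. The fit was tested on simulated data. Software was R 4.3.3, limma 3.58.1, Python 3.11.15, pandas 2.3.3, numpy 2.4.6 and matplotlib 3.10.9.

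Alternatives were array median or 75th percentile scaling, quantile normalization, a filter that drops the lowest 30% of genes, averaging rows, every row alone, rows naming several genes, trend and robust moderation, no moderation, weighted arrays, a block for replicate number, and leaving out each array.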

Additional observations from a re-analysis of the deposited data

Results flagged for a closer look

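Rows that name a ribosomal protein gene together with other genes were not used in the comparison, and 57 such rows named 32 ribosomal protein symbols, 12 of them without a row of their own. Of these rows, 14 were higher in GFP-high than in GFP-negative cells, 4 were lower and 39 did not pass (limma, adjusted over all 41344 rows, of which 8.46% were called higher and 10.4% lower; these include rows that name no gene). Their median log2 fold change was 0.14. Each of the 14 is given here because its row was called higher. These rows come from the same arrays and the same contrast as those of the members, so they are no independent support. Among symbols without a single-gene row, the values were 0.79 for Rpl36a with Rpl36al, 0.53 for Rps21, 0.52 and 0.46 for 2 rows of Rpl12, 0.52 for Rpl23, 0.50 for Rpl36 and 0.49 for Rps2 (all log2 fold changes). Among symbols that are members, they were 0.97 for a row of Rps12 and its pseudogenes, 0.91 for Rpl37a with Mir682, 0.70 for Rps27 with Rps27rt, 0.58 for Rpl13, 0.55 for Rpl26, and 0.54 and 0.49 for 2 rows of Rpl23a. The single-gene row of Rpl37a had a mean below 6 and a fold change of -0.01, while the row shared with Mir682 averaged 10.83 ± 0.09 in GFP-high cells and 9.92 ± 0.04 in GFP-negative cells (SD, n = 3 each). Rpl26 likewise had -0.22 on its own row and 11.17 ± 0.09 in GFP-high against 10.62 ± 0.21 in GFP-negative cells on the shared one (SD, n = 3 each).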

How the results depend on the processing

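The median fold change of the members stayed above 0 in all settings tried, from 0.13 without GFP-high replicate 1 to 0.25 with 75th percentile scaling. The count of members called higher was 12 when rows of a gene were averaged (17.65%, beside 12.97% of all genes). With every row on its own it was 31 of 110 (28.18%, beside 12.9% of all single-gene rows), or 24 of 103 rows with distinct values. It was 29 of 80 with rows naming several genes also used (36.25%, beside 13.07% of all genes). Leaving out 1 array gave 10 to 19 (14.71% to 27.94%, beside 10.7% to 12.33% of all genes). The single call as lower (Rplp2) became 0 with 75th percentile scaling and with trend and robust moderation. The count was also 0 without the lowest 30% of genes, a filter that removed Rplp2, so that gene was not tested there. The count of lower calls was 0 to 1 when an array was left out (the 1, without GFP-negative replicate 2, was Rpl11). It was 2 with every row on its own or rows naming several genes. Ribosome assembly factors called lower numbered 7 to 13 when an array was left out and 10 to 15 in the other settings, with 0 called higher in each. These settings were added for that list after seeing the data. All genes called lower numbered 2940 to 3382 of 22179 when an array was left out. In the other settings they numbered 2813 to 4030, of 15525 genes without the lowest 30%, 23520 rows with every row on its own and 22179 genes otherwise. The change of Rpl3l against Rpl3 reversed to 0.065 with rows averaged. The next counts cover the 15 settings other than every row alone and rows naming several genes. Of 20 called members, 6 kept their call in all of these, and 8 uncalled members gained one in at least 1. With rows naming several genes also used, the uncalled Rpl26, Rpl37a and Rps16 were called higher as well. The fit with the replicate number as a block called 14 members higher (20.59%, beside 12.3% of all genes) and 1 lower. The 1 lower was Rps4l and not Rplp2. The replicate numbers are not shown to pair the samples: deviations of same-numbered arrays correlated at 0.114, -0.0256 and -0.00159. Fits without 1 array rest on fewer arrays, which leaves the test less able to call genes. Without GFP-high replicate 3 the count of members called higher was 19, as in the main fit. Why the counts differ between these fits was not tested.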

Other observations

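Of 9 rows that name a ribosomal protein gene together with a small nucleolar RNA, 3 were called lower, 0 higher and 6 did not pass, of which 2 lay above 0. Together with a row of Gm10051 and Rpl28 they make up the 4 lower calls among rows naming several genes. The row of Snord14a and Rps13 averaged 5.95 ± 0.30 in GFP-high cells and 7.15 ± 0.11 in GFP-negative cells (SD, n = 3 each; log2 fold change -1.21, adjusted p = 0.00255 by limma over all rows). The row of Snora70, Gm5621 and Rpl10 gave -0.69 and that of Snora52 and Rplp2 gave -0.44. The row of Gm10051 and Rpl28 gave -0.70. Over all 41344 rows, 10.4% were called lower. Small nucleolar RNAs guide the modification of ribosomal RNA and are processed from introns of these host genes.

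Of the 26 members with several rows, 13 had rows that differed in their call and 11 had a row of opposite sign to the row used. For Rpl4 the stronger row was not the one that was called: the row with a mean of 11.93 had a fold change of 0.04, and a second row with a mean of 7.43 had 0.67 on the log2 scale.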
